A study of Homo sapiens with 6 samples.

Results

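The 9 genes described here are members of the JAK-STAT pathway: 5 STAT transcription factors (STAT2, STAT3, STAT5A, STAT5B and STAT6), 3 JAK kinases (JAK1, JAK2 and TYK2) and the inhibitor SOCS1. They were selected by gene symbol from the 28278 genes listed for each library, and all 9 were found and passed the filter on low counts, as did 15307 genes in all. The set was chosen with the measured siALDOA and siControl counts of the same 6 libraries known, so for these 9 genes the fold changes, their intervals and their place against the threshold are a description of the libraries, no p-value is given and nothing is supported with them. The RNA-Seq asked what silencing of ALDOA, a glycolytic enzyme that splits fructose-1,6-bisphosphate, does to the transcriptome of HT29 cells. HT29 is an established line of human colorectal adenocarcinoma with epithelial morphology. Cells of 3 biological replicates received siRNA against ALDOA (siALDOA) and cells of the other 3 received a scrambled siRNA (siControl). Total RNA was taken 48 h later. Both groups carried siRNA, and the labels do not say whether siALDOA was 1 sequence or several. Cells without siRNA were not analysed here.

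In this pathway a cytokine or interferon binds a receptor that has no kinase activity of its own, and the JAK kinases bound to the receptor chains phosphorylate them. STAT proteins dock there, are phosphorylated, pair up and enter the nucleus to act on target genes. STAT2 works with IRF9 in ISGF3, the complex formed after type I and type III interferon, whereas STAT3 is best known for signals through IL6ST, STAT5A and STAT5B for prolactin, growth hormone and IL2 family cytokines, and STAT6 for IL4 and IL13. SOCS proteins are made in response to these signals and switch the kinases off. In colon epithelium the pathway is known for the response to interferon and for STAT3 signalling in repair and cancer.

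ALDOA counts were 7870, 9160 and 7948 in siALDOA replicates 1, 2 and 3 and 18453, 19438 and 22000 in siControl replicates 1, 2 and 3, so the knockdown was present in each siALDOA library (log2 fold change -1.13). Total counts ranged from 27277538 to 28690395 with siALDOA and from 31899091 to 33237914 with siControl, and 1 CPM (the standard unit of counts scaled to library size, here with TMM factors) was worth 27.8 to 33 counts. Ribosomal RNA genes took 7.71% to 13.1% of the counts with siALDOA and 8.15% to 17.4% with siControl. Libraries of a group were compared over all tested genes, ribosomal RNA genes included. In this comparison siALDOA replicate 1 stood apart from replicates 2 and 3 (chi-square per degree of freedom 39.8 and 34.8, against 5.09 between those). In the siControl group replicate 3 stood apart from replicates 1 and 2 (91.9 and 58.8, against 11.5 between those). The part of the ribosomal RNA genes in these values was not tested. Ribosomal RNA genes took 13.1% of the counts in siALDOA replicate 1, above the other siALDOA libraries, and 8.15% in siControl replicate 3, below the other siControl libraries. The colon epithelial markers KRT8, KRT18, EPCAM and others were present, with a summed level of 8380 to 8620 CPM in siALDOA and 9190 to 9660 CPM in siControl libraries. Of these 8 markers 7 had a negative log2 fold change, EPCAM being the exception (0.13), and the median was -0.12. The count past the threshold as lower was 1, KRT18 (-0.28), and it was 2 with DESeq2 and with the likelihood ratio test and 3 with limma-voom. KRT18 did not pass it without siALDOA replicate 2 or 3, without siControl replicate 2 or 3 (-0.31 to -0.27 over the libraries left out) or with library totals only (-0.21). Leukocyte markers summed to 1.2 to 1.51 CPM and 1.25 to 1.7 CPM, and fibroblast markers to 3.16 to 4.33 CPM and 3.05 to 4.46 CPM. Fewer cells of a type and less RNA per cell cannot be told apart in bulk RNA.

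Across all tested genes, edgeR's quasi-likelihood test with an adjusted p under 0.05 called 668 genes higher (4.36%) and 810 genes lower (5.29%) with siALDOA. Scaling by library totals only gave 896 higher and 279 lower. Without siControl replicate 2 the counts were 359 and 490, and without siControl replicate 3 they were 363 and 471. The CPM of the 2 groups did not overlap for 2005 genes that were higher (13.1%) and 2228 that were lower (14.6%). Of the 9 pathway members, 2 lay past the threshold as higher, STAT2 and STAT3, 1 as lower, STAT5A, and 6 did not pass it. The groups did not overlap for 3 members that were higher (STAT2, STAT3 and STAT6) and for 4 that were lower (STAT5A, STAT5B, JAK1 and JAK2), and they overlapped for TYK2 and SOCS1. As this contrast was known when the set was chosen, nothing is read from these counts. Without siALDOA replicate 1, one of the libraries that stood apart, the log2 fold changes were 0.85 for STAT2, 0.26 for STAT3, 0.10 for STAT6, 0.07 for TYK2 and 0.80 for SOCS1, and -0.51 for STAT5A, -0.33 for STAT5B, -0.18 for JAK1 and -0.20 for JAK2. Without siControl replicate 3, the other such library, they were 0.80, 0.26, 0.08, 0.07 and 0.38 for the former genes and -0.48, -0.27, -0.16 and -0.21 for the latter, in the same order. SOCS1 thus moved most between these comparisons. With all 6 libraries the 9 log2 fold changes ran from -0.52 to 0.78, with a median of 0.07, beside a median of 0.0016 and quartiles of -0.12 and 0.14 for all tested genes. Summed over the set, the level was 502 to 521 CPM with siALDOA and 461 to 467 CPM with siControl.

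**Figure D1:**
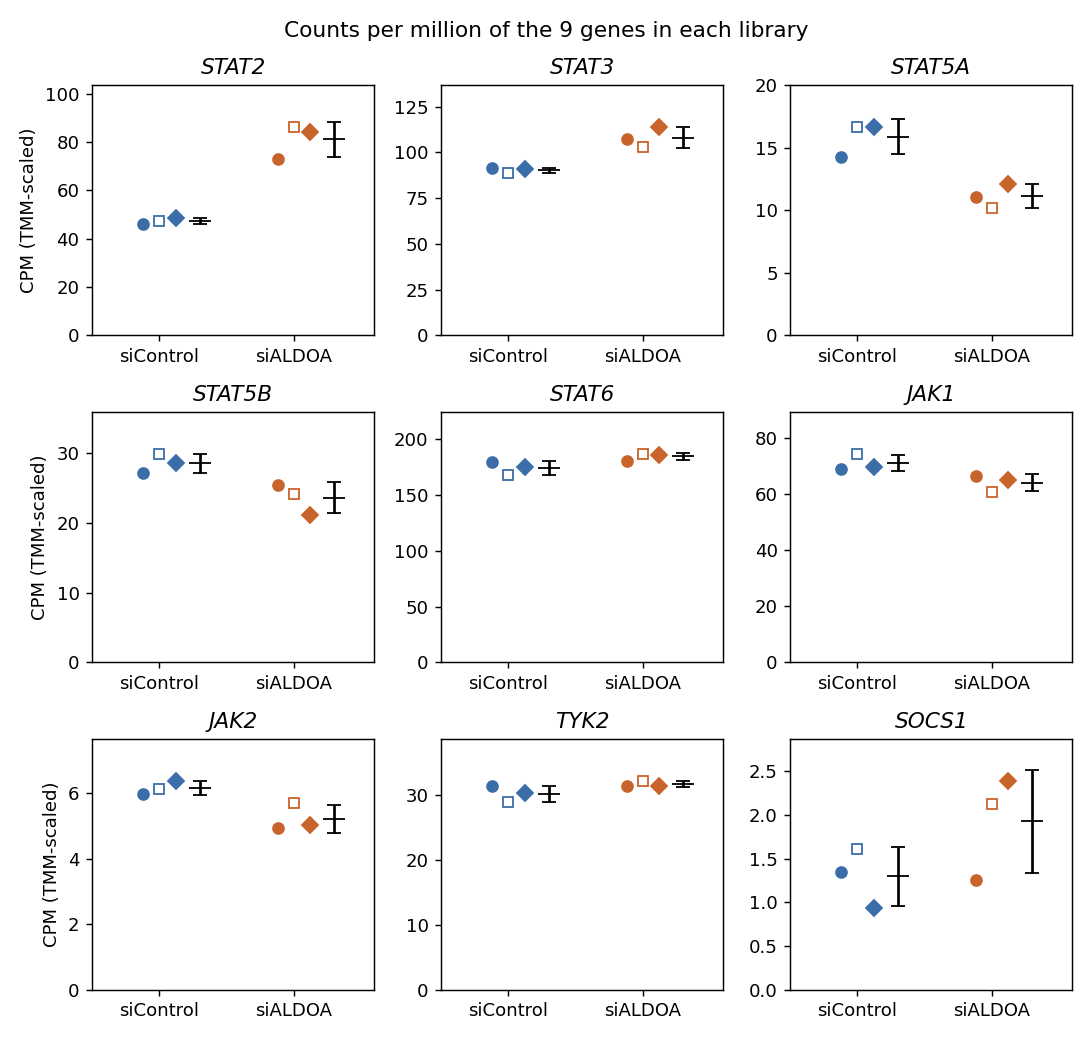
Each panel plots the TMM-scaled CPM of 1 gene (vertical axis, from 0) in the 3 siControl (blue) and 3 siALDOA (orange) libraries, with replicate 1 as a circle, 2 as an open square and 3 as a diamond, and the mean ± SD as a black bar (n = 3). STAT2 stands apart most clearly, at 72.9 to 86.4 CPM against 46.1 to 48.5 CPM, whereas the points of TYK2 and SOCS1 overlap between the groups.

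STAT2, the partner of IRF9 in ISGF3, differed most. Its counts were 2028, 2597 and 2396 in siALDOA replicates 1, 2 and 3 and 1439, 1445 and 1599 in siControl replicates 1, 2 and 3. These correspond to 72.9, 86.4 and 84.3 CPM and to 46.1, 47.3 and 48.5 CPM. All 3 siALDOA libraries were above every siControl library, and replicate 1, in which ribosomal RNA genes took 13.1% of counts, was the lowest of the siALDOA libraries. The siALDOA mean of 81.2 ± 7.30 CPM stood against a siControl mean of 47.3 ± 1.19 CPM (SD, n = 3 each), which is 1.72-fold (95% interval 1.55 to 1.9) and a log2 fold change of 0.78 (SE 0.071). The log2 fold change was 0.85 without siALDOA replicate 1 and 0.78 without the ribosomal RNA genes, and the part of the ribosomal RNA in the spread was not tested. STAT2 lies on chromosome 12 of hg38 from 56341597 to 56360203 on the minus strand.

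The promoter window of STAT2 is shown because STAT2 is the member with the largest difference, and those of SOCS1 and STAT5A because they alone among the 9 genes held a searched motif. The windows come from RefSeq on GRCh38.p14, run 5′ to 3′ on the strand of the gene, and cover 250 bases before to 50 bases after an annotated start. All 9 genes had at least 1 window, 16 windows in all. Both strands were searched for the GAS motif TTCNNNGAA, to which most STAT pairs bind, for TTC, any 4 bases and GAA, the spacing that STAT6 binds, and for the core GAAANNGAA of the ISRE, to which ISGF3 and other IRF proteins bind. Matches to different motifs may overlap, since each motif ends in GAA. Of all 35116 windows in the table, 7.66% held the GAS motif, 6.44% the STAT6-type motif and 8.11% the ISRE core. Among the members, SOCS1 held an ISRE core at -113 to -105 from the start and STAT5A a STAT6-type motif at -229 to -220 from the start of 1 of its 3 windows, and the capitals mark both. The other two windows of STAT5A and the window of STAT2 held none of these motifs.
STAT2, chr12:56360058-56360357, minus strand: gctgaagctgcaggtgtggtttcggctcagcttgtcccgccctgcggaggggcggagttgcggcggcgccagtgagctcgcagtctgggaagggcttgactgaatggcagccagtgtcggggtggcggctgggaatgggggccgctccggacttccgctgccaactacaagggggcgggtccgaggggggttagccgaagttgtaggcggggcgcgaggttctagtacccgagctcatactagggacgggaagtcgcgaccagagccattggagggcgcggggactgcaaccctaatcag
SOCS1, chr16:11256155-11256454, minus strand: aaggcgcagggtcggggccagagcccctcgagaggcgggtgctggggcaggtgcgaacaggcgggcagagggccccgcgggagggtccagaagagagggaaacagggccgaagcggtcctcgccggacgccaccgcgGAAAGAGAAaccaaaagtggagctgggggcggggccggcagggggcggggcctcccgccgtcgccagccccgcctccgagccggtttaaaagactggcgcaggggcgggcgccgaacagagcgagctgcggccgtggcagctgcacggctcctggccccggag
STAT5A, chr17:42287189-42287488, plus strand: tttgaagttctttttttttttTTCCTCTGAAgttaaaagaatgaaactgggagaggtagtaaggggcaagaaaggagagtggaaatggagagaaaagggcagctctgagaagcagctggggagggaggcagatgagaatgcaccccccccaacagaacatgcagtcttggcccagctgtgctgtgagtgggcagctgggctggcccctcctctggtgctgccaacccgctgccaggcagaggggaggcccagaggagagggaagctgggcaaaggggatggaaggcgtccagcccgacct
A match of letters is not a measured binding site, and other stretches of these genes were not searched.

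STAT3, the STAT that IL6 family cytokines activate through IL6ST, differed less. It had 107, 103 and 114 CPM in siALDOA replicates 1, 2 and 3 and 91.2, 88.6 and 90.7 CPM in siControl replicates 1, 2 and 3. All siALDOA libraries were higher than all siControl libraries. The counts behind these levels were 2705 to 3238 per library. The means were 107.9 ± 5.76 CPM and 90.2 ± 1.36 CPM (SD, n = 3 each), a log2 fold change of 0.26 (SE 0.060, 95% interval 0.13 to 0.38). Without siALDOA replicate 3 or siControl replicate 2 the log2 fold change was 0.22 and 0.24, not past the threshold. STAT3 lies on chromosome 17 from 42313324 to 42388540 on the minus strand.

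STAT5A and STAT5B are close paralogs that answer to prolactin and growth hormone. STAT5A had 308, 308 and 343 counts in siALDOA replicates 1, 2 and 3 and 447, 510 and 551 counts in siControl replicates 1, 2 and 3, or 11.1, 10.2 and 12.1 CPM against 14.3, 16.7 and 16.7 CPM. The groups did not overlap, and the log2 fold change was -0.52 (SE 0.11, 95% interval -0.75 to -0.29). The counts of STAT5B were 709, 726 and 603 in the siALDOA libraries against 847, 914 and 944 in the siControl libraries, or 25.5, 24.2 and 21.2 CPM against 27.2, 29.9 and 28.6 CPM. These groups did not overlap either, but the gap between siALDOA replicate 1 and siControl replicate 1 was smaller than the range of CPM within either group. The log2 fold change of STAT5B was -0.28 (SE 0.088, 95% interval -0.46 to -0.09). STAT5B was not past the threshold. It was past it without siALDOA replicate 1 (-0.33), with DESeq2, with the likelihood ratio test, with no filter on low counts and with the replicate block.

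The counts of the 2 STAT5 genes are uncertain where a read matches both. Of the 100-base words in the MANE transcript, 371 were shared by both genes, which is 10.1% of the words of STAT5A and 7.45% of those of STAT5B, whereas the other 7 members shared no such word with another gene. Added together, STAT5A and STAT5B gave 36.5, 34.4 and 33.3 CPM in siALDOA replicates 1, 2 and 3 and 41.5, 46.7 and 45.4 CPM in siControl replicates 1, 2 and 3. The siALDOA sums were all below the siControl sums, and the part of reads that match both genes was not tested. STAT5A made up 30.3%, 29.8% and 36.3% of this sum with siALDOA and 34.5%, 35.8% and 36.9% with siControl (95% exact binomial intervals from 27% to 39.4%, counting error only), so the shares of the 2 groups overlapped. Both genes also lie side by side on chromosome 17, STAT5B from 42199176 to 42288633 on the minus strand and STAT5A from 42287547 to 42311943 on the plus strand. Their annotated spans overlap by 1087 bases at the starts, and 1380 bases separate the end of STAT5A from that of STAT3, which was higher and not lower with siALDOA.

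STAT6, the STAT of IL4 and IL13 signalling, had the highest level per transcript length of the set. It was at 181, 187 and 186 CPM in siALDOA replicates 1, 2 and 3 and at 180, 168 and 175 CPM in siControl replicates 1, 2 and 3. The lowest siALDOA library was just above the highest siControl library. With 184.6 ± 3.26 CPM against 174.2 ± 6.32 CPM (SD, n = 3 each), the log2 fold change was 0.08 (SE 0.056, 95% interval -0.03 to 0.20). STAT6 lies on chromosome 12 from 57095408 to 57132139, 735.2 kb from STAT2 on the same strand.

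Among the kinases, JAK1, which serves receptors of all the cytokine groups named above except prolactin and growth hormone, had 66.6, 60.8 and 65.1 CPM in siALDOA replicates 1, 2 and 3 and 69.1, 74.4 and 69.8 CPM in siControl replicates 1, 2 and 3. The log2 fold change was -0.15 (SE 0.064, 95% interval -0.28 to -0.01). JAK2, the kinase of the prolactin, growth hormone and erythropoietin receptors, had 4.92, 5.69 and 5.03 CPM against 5.96, 6.13 and 6.37 CPM. For both kinases the siALDOA libraries were all below the siControl libraries. JAK2 rested on 137 to 210 counts per library, and its log2 fold change of -0.24 (SE 0.15) had a 95% interval from -0.55 to 0.08. TYK2, which works beside JAK1 at the type I interferon receptor, had 31.4, 32.2 and 31.4 CPM against 31.4, 28.9 and 30.3 CPM. Its groups overlapped, and its log2 fold change was 0.07 (SE 0.076, 95% interval -0.09 to 0.23). The ratio of JAK1 to TYK2 counts was 1.89 to 2.12 with siALDOA and 2.2 to 2.58 with siControl, so the ratio was lower in every siALDOA library. JAK1 lies on chromosome 1 from 64833223 to 65067754 on the minus strand, JAK2 on chromosome 9 from 4984390 to 5129948 on the plus strand and TYK2 on chromosome 19 from 10350533 to 10380608 on the minus strand.

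SOCS1, which binds JAK kinases and blocks them, was measured with few counts. It had 35, 64 and 68 counts in siALDOA replicates 1, 2 and 3 and 42, 49 and 31 counts in siControl replicates 1, 2 and 3, or 1.26, 2.13 and 2.39 CPM against 1.35, 1.61 and 0.941 CPM. Replicates 2 and 3 of siALDOA were above all siControl libraries and replicate 1 was within their range. The log2 fold change of 0.57 (SE 0.32) had a 95% interval from -0.10 to 1.25 and ran from 0.38 to 0.80 over comparisons that dropped 1 library. SOCS1 lies on chromosome 16 from 11254417 to 11256204 on the minus strand, 18.8 Mb from ALDOA, within the span of RMI2 on the opposite strand. The counts of RMI2 were 570, 842 and 556 in the siALDOA libraries against 567, 550 and 615 in the siControl libraries. No source used here states that strand was used in counting, so reads of SOCS1 and of transcripts on the other strand cannot be told apart. The spans of STAT6 (NAB2 and LRP1), JAK1 (RAVER2) and JAK2 (INSL6, which had 0 counts in all libraries) also overlap coding genes on the opposite strand.

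**Figure D2:**
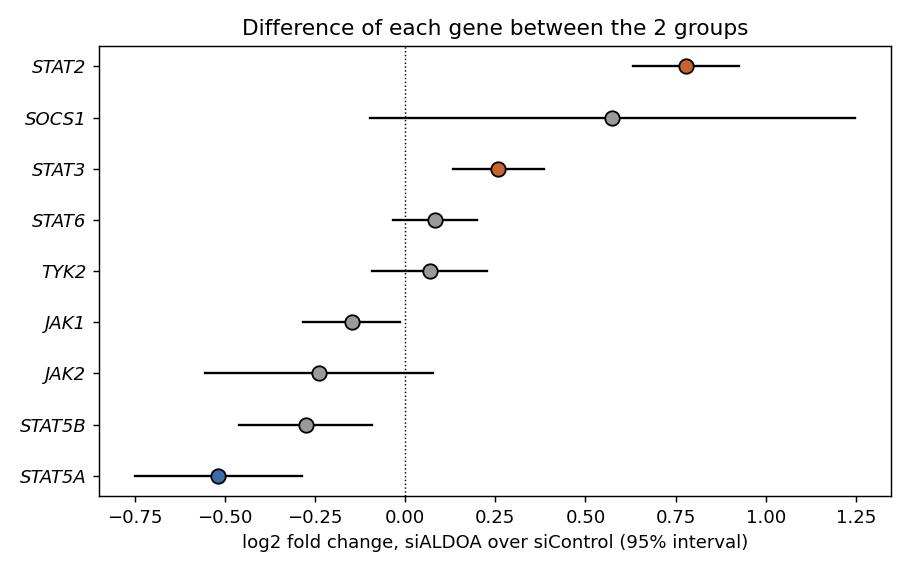
The horizontal axis is the log2 fold change of siALDOA over siControl for each of the 9 genes, with its 95% interval as a line (3 libraries a group). Orange and blue points lay past the threshold as higher and lower and grey points did not. The interval of SOCS1 is the widest, from -0.10 to 1.25.

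The members differed among themselves in the spread between replicates. The coefficient of variation of CPM ran from 1.61% to 9.21% in the siALDOA group and from 1.51% to 8.64% in the siControl group for the 8 members other than SOCS1, beside medians of 8.13% and 6.91% over all tested genes. SOCS1 varied by 30.9% and 25.8%. For STAT2 the siALDOA libraries varied by 8.99% and the siControl libraries by 2.51%.

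Divided by the length of the MANE transcript, the siControl levels ordered the genes as follows. STAT6 had 44 ± 1.52 CPM per kb, STAT3 18.3 ± 0.28, JAK1 14 ± 0.565 and STAT2 10.7 ± 0.272 CPM per kb (SD, n = 3). Below these came TYK2 with 7.12 ± 0.295, STAT5B with 5.62 ± 0.266 and STAT5A with 4.22 ± 0.368 CPM per kb. SOCS1 with 1.05 ± 0.272 and JAK2 with 0.876 ± 0.0293 CPM per kb were lowest, and their ranges of 0.76 to 1.3 and 0.849 to 0.907 overlapped, as no other neighbours did. Among the 3 member kinases JAK1 thus had the highest level per kb and JAK2 the lowest. With siALDOA, STAT2 reached 18.4 ± 1.65 CPM per kb and JAK1 12.6 ± 0.591, so that STAT2 stood in place 3 and JAK1 in place 4, the reverse of siControl. All other places were the same. Divided by the length of all annotated exons instead, the siControl order had STAT5A before STAT5B and JAK2 before SOCS1.

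**Figure D3:**
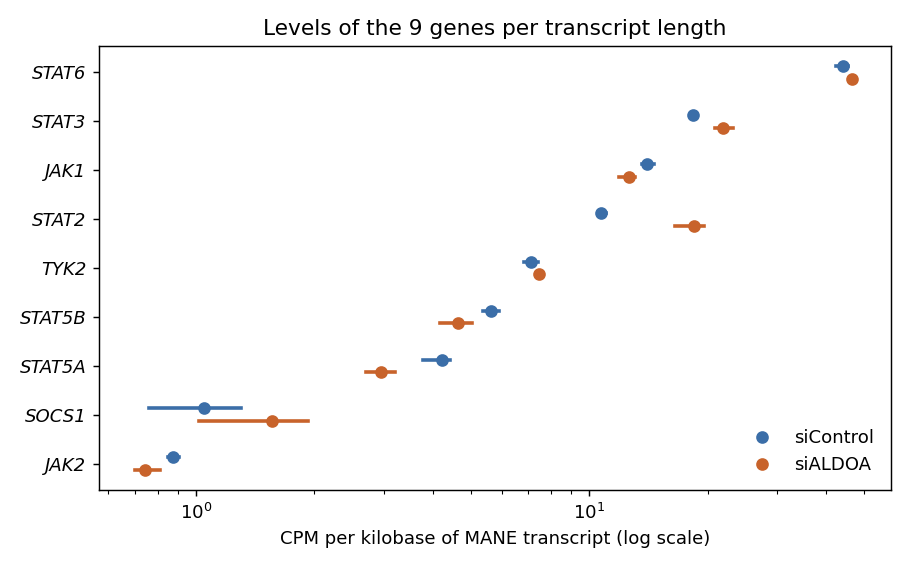
The horizontal axis gives CPM per kb of the MANE transcript on a log scale for the 9 genes, ordered by the siControl mean. Points are means and lines the range of 3 libraries, in blue for siControl and orange for siALDOA. STAT2 moves from 10.7 to 18.4 CPM per kb, past JAK1.

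Ratios within a library do not depend on its total. STAT2 counts per STAT6 count were 0.403, 0.462 and 0.454 in siALDOA replicates 1, 2 and 3 and 0.256, 0.282 and 0.278 in siControl replicates 1, 2 and 3. The ratio of STAT2 to STAT3 was 0.68 to 0.843 with siALDOA and 0.506 to 0.535 with siControl. Relative to IRF9, its partner in ISGF3, STAT2 had 1.2 to 1.27 counts per count with siALDOA and 0.839 to 0.897 with siControl. The ratio to each of these genes was thus higher in every siALDOA library than in any siControl library.

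For the members with a log2 fold change of at least 0.5 in size, the 3 genes with the most similar pattern were taken by the distance of centred log2 CPM over the 6 libraries, among 13723 genes. STAT2 was nearest to RNF213 (distance 0.0435, log2 fold change 0.80), ZCCHC2 (0.0621, 0.78) and PARP12 (0.0951, 0.81). For STAT5A these were SLC23A3 (0.135, -0.44), MAGEA6 (0.139, -0.49) and ANO10 (0.141, -0.56). The pattern of SOCS1 was matched less closely, by CD274 (0.265, 0.57), IQCD (0.37, 0.39) and CCDC187 (0.374, 0.58). The libraries and the group difference are shared by all these genes, and the distance is a description.

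The rest of the pathway was read from lists of ligands, receptor chains, inhibitors, nuclear partners and textbook targets, 159 genes beside the 9 members. Of these, 100 were tested, 26 rose and 8 fell, beside 4.36% and 5.29% of all tested genes, and 15 of the 26 belong to the list of ISGF3 targets. The lists were written with earlier results of these libraries known, and the rise of interferon-stimulated genes was among those results. Without siControl replicate 2 the calls were 22 and 2 and without siControl replicate 3 they were 22 and 3, and library totals only gave 26 and 2.

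Of 28 ligand genes, 7 were tested and 2 rose. IFNL1, a type III interferon, had 16, 17 and 13 counts in siALDOA replicates 1, 2 and 3 and 5, 4 and 3 counts in siControl replicates 1, 2 and 3 (log2 fold change 2.03, SE 0.57, adjusted p = 0.027). IFNL1 passed the filter on low counts through the siALDOA libraries alone, so its call is no support for a rise of the ligands. It could not be fitted with at least 10 counts in every library, and it did not pass with DESeq2, without a filter on low counts or when any library was left out (1.84 to 2.23). IFNE, a type I interferon of epithelia, rose from 4.79 ± 1.31 to 7.55 ± 1.18 CPM (SD, n = 3 each; log2 fold change 0.65, adjusted p = 0.029), but it did not pass without siALDOA replicate 1, siControl replicate 2 or siControl replicate 3 (0.48 to 0.87 over the libraries left out). Below the filter, IFNB1 had 2, 5 and 6 counts in the siALDOA libraries against 0, 0 and 0 in siControl, and IFNL2 had 3, 11 and 17 counts against 0, 0 and 0. IFNL3 had 4, 9 and 10 counts against 0, 0 and 2. These interferon counts moved in the same direction as STAT2 and SOCS1 did in the group means, and their part in the levels of the members was not tested. IFNG, IL6, IL10, IL22 and IL2 had no count in any library.

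Of 41 receptor genes, 21 were tested, 1 rose and 1 fell. IL4R, the receptor chain for IL4 and IL13, fell from 72.6 ± 0.894 to 55.2 ± 2.71 CPM (SD, n = 3 each; log2 fold change -0.39, SE 0.064, adjusted p = 0.00031), while the level of STAT6, which it activates, differed by 0.08. IFNGR2 of the interferon gamma receptor rose from 35.3 ± 1.55 to 42.7 ± 4.58 CPM (log2 fold change 0.27, adjusted p = 0.037), and the call was lost with limma-voom and without any library other than siALDOA replicate 2 (0.20 to 0.35). Other chains of these receptor families did not pass. IFNAR1 had a log2 fold change of 0.06 (95% interval -0.09 to 0.22) and IFNAR2 one of 0.05 (-0.16 to 0.26). Values were 0.35 (0.02 to 0.67) for IFNLR1, which binds type III interferons, 0.11 (-0.13 to 0.34) for its partner IL10RB, -0.12 (-0.27 to 0.02) for IFNGR1 and 0.06 (-0.06 to 0.18) for IL6ST. JAK3, the kinase of the family that is known from lymphocytes, had 26 to 67 counts per library and a log2 fold change of 0.14 (-0.54 to 0.83).

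Among 19 inhibitors beside SOCS1, 18 were tested, 2 rose and 2 fell. USP18, which shields the type I interferon receptor from further signalling and is itself induced by interferon, rose from 18.3 ± 0.468 to 29.6 ± 4.12 CPM (SD, n = 3 each; log2 fold change 0.70, adjusted p = 7.4e-05). PIAS3, an inhibitor of STAT3, rose with a log2 fold change of 0.24 (adjusted p = 0.030), though without siALDOA replicate 2 or 3 or any siControl library it did not pass (0.18 to 0.28). The phosphatase PTPN11 fell by 0.24 on the log2 scale (adjusted p = 0.0076) and the adaptor SH2B3, which restrains JAK2, fell by 0.37 (adjusted p = 0.015). Both calls were lost with library totals only and without siControl replicate 2, PTPN11 also without siALDOA replicate 3 and SH2B3 without siALDOA replicate 2 or siControl replicate 3 (-0.26 to -0.21 and -0.40 to -0.34). CISH, a SOCS family member and known target of STAT5, had 25, 35 and 35 counts against 51, 58 and 56 counts. These CISH groups did not overlap, but its log2 fold change of -0.66 (SE 0.30, adjusted p = 0.19) did not pass. SOCS3 was below the filter, with 3 to 5 counts with siALDOA and 5 to 12 with siControl.

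Of 9 nuclear partners, all tested, 2 rose and 2 fell. IRF9 had 57.7, 71.9 and 66.2 CPM in siALDOA replicates 1, 2 and 3 and 51.5, 56.4 and 54.1 CPM in siControl replicates 1, 2 and 3, so the groups stood close but did not overlap. A coding gene annotated on the same strand overlaps IRF9, so its counts are uncertain where reads match both. Its log2 fold change of 0.27 (SE 0.076, adjusted p = 0.025) did not pass without siALDOA replicate 2 or 3 or any siControl library (0.20 to 0.36). NMI, which binds STAT proteins, rose by 0.48 (SE 0.082, adjusted p = 0.00052) in the main comparison and passed in all 16 alternatives. The coactivator CREBBP fell by 0.24 (adjusted p = 0.044) and the import receptor KPNB1 fell by 0.19 (adjusted p = 0.037). Neither passed with library totals only or in 5 of the 6 comparisons with 1 library left out (-0.31 to -0.15 and -0.22 to -0.16), the exception being siALDOA replicate 3 for CREBBP and siALDOA replicate 1 for KPNB1.

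All 15 targets of ISGF3 were tested and rose, with a median log2 fold change of 1.23. RSAD2, an antiviral enzyme, rose from 19.9 ± 2.26 to 99.3 ± 16.0 CPM (SD, n = 3 each; log2 fold change 2.32, adjusted p = 6.2e-12). IFIT1, which binds viral RNA, and IFIT3 had log2 fold changes of 1.76 and 1.57, and IFI44L one of 1.77. As for STAT2, siALDOA replicate 1 was the lowest siALDOA library for all 4 of these genes. Of 15 interferon gamma targets, 10 were tested and 5 rose. These were TAP1, the peptide transporter of antigen presentation (log2 fold change 1.31), the chemokine CXCL10 (1.86), the GTPases GBP4 (0.90) and GBP1 (0.72) and the transcription factor IRF1 (0.39). CD274, the ligand of PD-1, did not pass (0.57, 95% interval 0.01 to 1.12), except without siALDOA replicate 1 (0.81). The other tested genes of this list did not pass in the main comparison, which were CD74 (0.27), GBP2 (-0.02), CIITA (-0.06) and ICAM1 (-0.13).

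Of the tested targets ascribed to STAT3, STAT5 and STAT6, 0 passed as higher by edgeR's test, beside 4.36% of all tested genes. With so few genes tested this count lies near that share, and the difference from the ISGF3 targets was not tested. The calls as lower given below stand beside 5.29% of all tested genes, and that difference was not tested either. Of 21 targets of STAT3, 16 were tested, 0 rose and 2 fell by edgeR's test and the median log2 fold change was -0.17. The 2 were CCND1, a cyclin of G1 phase (-0.24, adjusted p = 0.012), and CEBPB, a leucine zipper transcription factor (-0.20, adjusted p = 0.029). Both lost the call with library totals only (-0.17 and -0.12) and without siControl replicate 2 or 3, and CEBPB also without siALDOA replicate 3 (-0.27 to -0.19 and -0.23 to -0.17). Of 10 targets of STAT5, 7 were tested, 0 rose and 2 fell, which were CCND1 again and ID1, an inhibitor of differentiation factors (-0.42, SE 0.070, adjusted p = 0.0005). The median of this list was -0.24. Of 8 targets of STAT6, 3 were tested and 1 fell, IL4R as given above. At an unadjusted p under 0.05, edgeR gave 1 STAT3 target as higher and 5 as lower. For STAT5 targets it gave 0 as higher and 3 as lower, and for STAT6 targets 0 and 1. The share of all tested genes at this unadjusted p was not computed, so nothing is read from these counts. The 1 higher STAT3 target was CEBPD, a relative of CEBPB (log2 fold change 0.26), which did not pass after adjustment. DESeq2, limma-voom and the likelihood ratio test each called 0 of these targets higher. DESeq2 called 3 STAT3 targets lower in place of 2, and MYC, a transcription factor of growth, was the one added (-0.18). MYC also passed with no filter on low counts and with the replicate block (-0.18 in each). CEBPD and MYC were named after their values were seen.

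**Figure D4:**
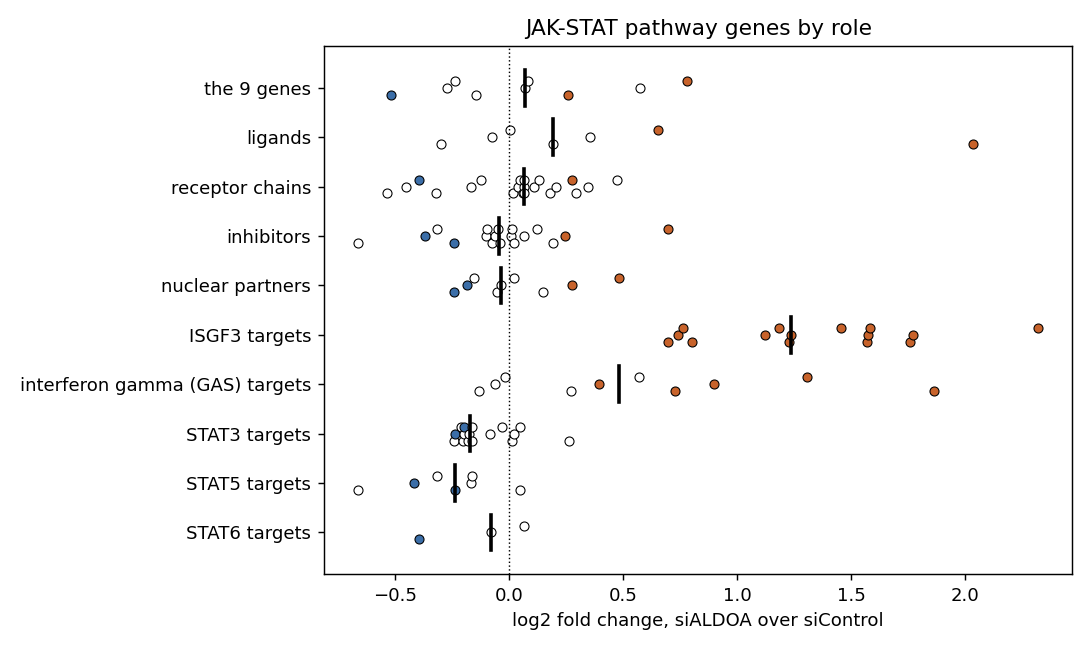
Each point is 1 tested gene of the list named on the vertical axis, placed by its log2 fold change of siALDOA over siControl. Orange genes were past the threshold as higher, blue as lower and white not past it, and the black bar is the median of the list. All 15 ISGF3 targets lie above 0 with a median of 1.23, and no orange point is among the targets of STAT3, STAT5 and STAT6. Some genes stand in more than 1 list.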

How the data were processed

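The 6 RNA-Seq libraries of HT29 cells comprised 3 siALDOA and 3 siControl samples, which the labels call biological replicates. The authors aligned reads to hg38 with TopHat2, counted with gfold and deposited read counts per gene symbol, whole numbers without normalization. The annotation, strand setting and treatment of reads with several matches are not given in the sources used here.

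Counts were compared in R 4.3.3 with edgeR 4.0.16, using filterByExpr, TMM factors, the quasi-likelihood F-test and a Benjamini-Hochberg adjusted p under 0.05 over 15307 genes. The SE was obtained as the ratio of the log2 fold change to the root of F. Log2 CPM used a prior count of 2. The method was tested on simulated data. Totals were 27277538 to 33237914 counts, so that 1 CPM rested on 27.8 to 33 counts, and intervals of shares cover counting error only. Gene positions and lengths came from GENCODE release 44 and promoter windows from RefSeq.

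The members and lists were chosen with earlier results of these data known. Named were ALDOA, the 9 members, up to 4 genes a list and direction by p, partners of members (ligands, receptor chains and inhibitors, tested or not) and, for members with a log2 fold change of at least 0.5 in size, the 3 genes with the nearest pattern. Named beyond this rule were IRF1, the fifth of its list, CD74, GBP2, CIITA, ICAM1, CEBPD, MYC, EPCAM, KRT8, JAK3 and genes that overlap a member. Not every gene the rule took is reported. Alternatives were DESeq2 1.42.0, limma-voom (limma 3.58.1), edgeR's likelihood ratio test, library totals only, upper quartile and RLE factors, no filter, at least 10 counts in every library, no ribosomal RNA genes, a replicate block and leaving out 1 library at a time. Figures were drawn with matplotlib 3.10.9.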

Additional observations from a re-analysis of the deposited data

How the results depend on the processing

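Under 16 alternatives the direction of all 9 members was kept. The log2 fold change ran from 0.73 to 0.85 for STAT2 and from -0.59 to -0.45 for STAT5A. As the set was chosen on this contrast, neither its directions nor its calls are a sign of stability. The members called lower numbered 2 in place of 1 with DESeq2, with the likelihood ratio test, with no filter on low counts and with the replicate block, and STAT5B was the one added. With library totals only the median log2 fold change of all genes moved to 0.075. In that setting 279 genes were lower in place of 810 and 2 pathway genes in place of 8. Pathway genes called lower numbered 11 with no filter on low counts and 12 with the replicate block. Leaving out 1 library at a time gave 359 to 644 genes higher, 471 to 790 genes lower, 1 to 2 members higher, 1 to 2 members lower and 2 to 7 pathway genes lower. A comparison without 1 library has fewer samples, and the cause of the other changes was not tested. Over the same comparisons IFNAR2 ran from -0.017 to 0.099 and JAK3 from -0.15 to 0.42, below 0 without siALDOA replicate 2 only, and neither was past the threshold.

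The replicate block gave 987 genes higher and 1175 lower. Libraries of the same number correlated by 0.035, 0.027 and 0.026 in their deviations from the group means, each more than with any other number, which is a hint from the data and not from the design, so the libraries were treated as unpaired. SOCS1 rested on 31 to 68 counts per library and varied between replicates by 30.9% and 25.8%, and the parts of depth and of other spread were not tested. IFNB1, IFNL2 and IFNL3 were below the filter on low counts. Groups of 3 were not tested for single outlying values. The libraries that stood apart over all genes, ribosomal RNA genes included, were siALDOA replicate 1 and siControl replicate 3. Values of the members are given above with and without each of them.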
